A study of Mus musculus with 24 samples.

Results

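The immediate early genes described here were Fos, Fosb, Jun, Junb, Egr1, Ier2, Ier3, Atf3, Btg2 and Ccn1, the latter long known as Cyr61. They were chosen by name, as all probe sets annotated to these 10 genes, and 13 of the 22626 probe sets of the array that are not controls belong to them. Jun, Btg2 and Ccn1 have 2 probe sets each and the other 7 genes have 1. Their mRNA was measured in the gastrocnemius and plantaris muscles of 6-week-old male mice. Control mice bore weight on all limbs (WB), and the hind limbs of the other mice were kept off the floor for 6 days (hind limb unloading, HU). The wild type mice were B6129PF2/J. The Nfkb1-/- mice (B6;129P2-Nfkb1tm1Bal/J) lack the p50 subunit of NF-κB in every cell, and the Bcl3-/- mice (FVB;129P2-Bcl3tm1Ver/J) lack Bcl-3, a nuclear co-activator that binds p50, so neither knockout is restricted to muscle. All mice had 3 days to acclimate. Each of the 6 groups had 4 mice with 1 array each, 24 arrays in total, and precision is limited by these 4 mice. The muscle was homogenised whole, so that fewer cells of a type and less RNA per cell cannot be told apart.

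Immediate early genes are transcribed within minutes of a stimulus without new protein synthesis, and their mRNAs are short lived. The classical inducers are serum, growth factors, calcium, stretch and contraction, which act through MAP kinases on SRF with its ETS partners and on CREB, and for several of the genes through NF-κB. Fos, Fosb, Jun, Junb and Atf3 encode basic leucine zipper proteins that dimerise into AP-1 and related factors, Egr1 encodes a zinc finger transcription factor, Btg2 an antiproliferative regulator of mRNA decay, Ier3 a stress-inducible regulator of survival, and Ccn1 a secreted matricellular protein. In skeletal muscle these genes are known for a brief rise after exercise, injury or stretch, so a sample at 6 days gives their level at the moment the muscle was removed.

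The promoters are shown because the study asked which unloading genes depend on p50 and Bcl-3. RefSeq promoters (GRCm38.p6) matched 8 of the 10 genes, and Egr1 and Ier2 had no entry in the table used. The 2 genes that passed the test below are printed over the 250 bases before their start, 5′ to 3′ on the strand of the gene. In Ier3 (chr17:35821463-35821712, plus strand) the capitals mark the match to the κB consensus, and in Ccn1 (chr3:145649986-145650235, minus strand) they mark ACGTCA, the core of the cyclic AMP response element that CREB and ATF proteins bind.
Ier3: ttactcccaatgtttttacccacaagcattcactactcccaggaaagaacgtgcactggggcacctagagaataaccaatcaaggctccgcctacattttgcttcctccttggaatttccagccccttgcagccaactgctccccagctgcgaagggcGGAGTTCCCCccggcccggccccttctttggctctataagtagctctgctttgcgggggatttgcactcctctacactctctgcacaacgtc
Ccn1: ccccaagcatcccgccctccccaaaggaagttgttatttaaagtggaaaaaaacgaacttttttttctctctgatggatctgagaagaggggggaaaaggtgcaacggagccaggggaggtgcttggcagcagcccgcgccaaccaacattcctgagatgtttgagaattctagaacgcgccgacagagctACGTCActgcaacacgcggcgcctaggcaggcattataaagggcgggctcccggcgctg

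Short stretches around the same 6 letters (ACGTCA, or TGACGT where the match was on the other strand) were shared by 4 of the 8 promoters, and they are set side by side with the match in capitals. Over 27025 promoters of the same length, 6.56% held these letters on either strand.
Ccn1 (-59 to -54): acagagctACGTCActgcaaca
Fos (-66 to -61): ccgcccagTGACGTaggaagtc
Atf3 (-8 to -3): atagcattACGTCAgc
Btg2 (-166 to -161): cccaataaTGACGTcagtgagc
In Btg2 the match lies inside the full palindrome TGACGTCA, which 1.62% of promoters held and which was found in 1 of the 8. A match to the κB consensus was found in Fos, Fosb, Ier3 and Atf3, against 22.9% of all promoters, and the Ier3 match lay from -92 to -83. The TATA box letters TATAAA were found in Fos and Ccn1, against 13% of all promoters. The AP-1 letters TGANTCA (6.87% of promoters) and the CArG box of SRF (1.4%) had no match within these 250 bases of the 8 genes. These matches are descriptions of the letters in this window.

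The authors deposited linear RMA intensities, and the 16 wild type and Nfkb1-/- arrays had medians of 11.6 to 11.9 while the 8 Bcl3-/- arrays had medians of 81.1 to 86.8. The Bcl3-/- levels are therefore on another scale, and that scale, the strain and the genotype cannot be told apart. Comparisons were made between arrays of 1 scale, or between the responses of 2 genotypes. The levels do not differ by 1 constant factor between the scales. Beside the array medians above, the summed intensity of 10 muscle fibre markers had a median of 58169 in WB wild type and 170081 in WB Bcl3-/- mice. A log2 change may thus differ in size between the scales, which limits every difference from the Bcl3-/- response. The residual SD of the fit also pools both scales. All 13 probe sets passed the filter of an intensity above 20 on at least 4 of 24 arrays, but Fosb was above 20 on 0 and Junb on 1 of the 16 wild type and Nfkb1-/- arrays. Those 2 genes passed through the Bcl3-/- arrays alone, and their values in the other genotypes lie near the lower end of the scale. Neither deletion could be checked, because Nfkb1 has 0 listed probe sets and the 1 probe set of Bcl3 would have to be read across the 2 scales. All 10 markers of muscle fibres were tested. Their summed intensity was 54609 to 56544 in HU Nfkb1-/- mice and 57150 to 60143 on the other wild type and Nfkb1-/- arrays. In Nfkb1-/- mice 1 of 10 had a change with unloading above 0 (median log2 change -0.09), and in wild type 7 of 10 (median 0.02). None of the 10 passed the test in these genotypes.

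Of the 13 probe sets, 2 rose with unloading in wild type muscle, 3 rose in Nfkb1-/- muscle and 0 changed in Bcl3-/- muscle (limma, adjusted p under 0.05 over 19294 probe sets). Over all probe sets tested, 2.31% rose and 3.97% changed in either direction in wild type, 4.79% rose and 11.4% changed in Nfkb1-/-, and 10.4% changed in Bcl3-/- mice. With the methods' t-test as rebuilt here, 1 probe set was called for Nfkb1-/- mice and 0 for Bcl3-/- mice under either adjustment. Wild type mice had 0 under Benjamini-Hochberg and 2 by q-value. The genes that rose were Ccn1 in wild type and Nfkb1-/- mice and Ier3 in Nfkb1-/- mice. The other 8 genes passed the test in no genotype, and at an unadjusted p under 0.05 there were 3, 4 and 1 of the 13 in wild type, Nfkb1-/- and Bcl3-/- mice, against 18%, 24.3% and 26.1% of all probe sets. The median log2 change of the 13, with Fosb and Junb included, was 0.43, 0.32 and -0.01, against -0.01, -0.00 and 0.02 for all probe sets tested. Changes are log2 differences, HU minus WB, with the standard error (SE) of the fit.

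**Figure D1:**
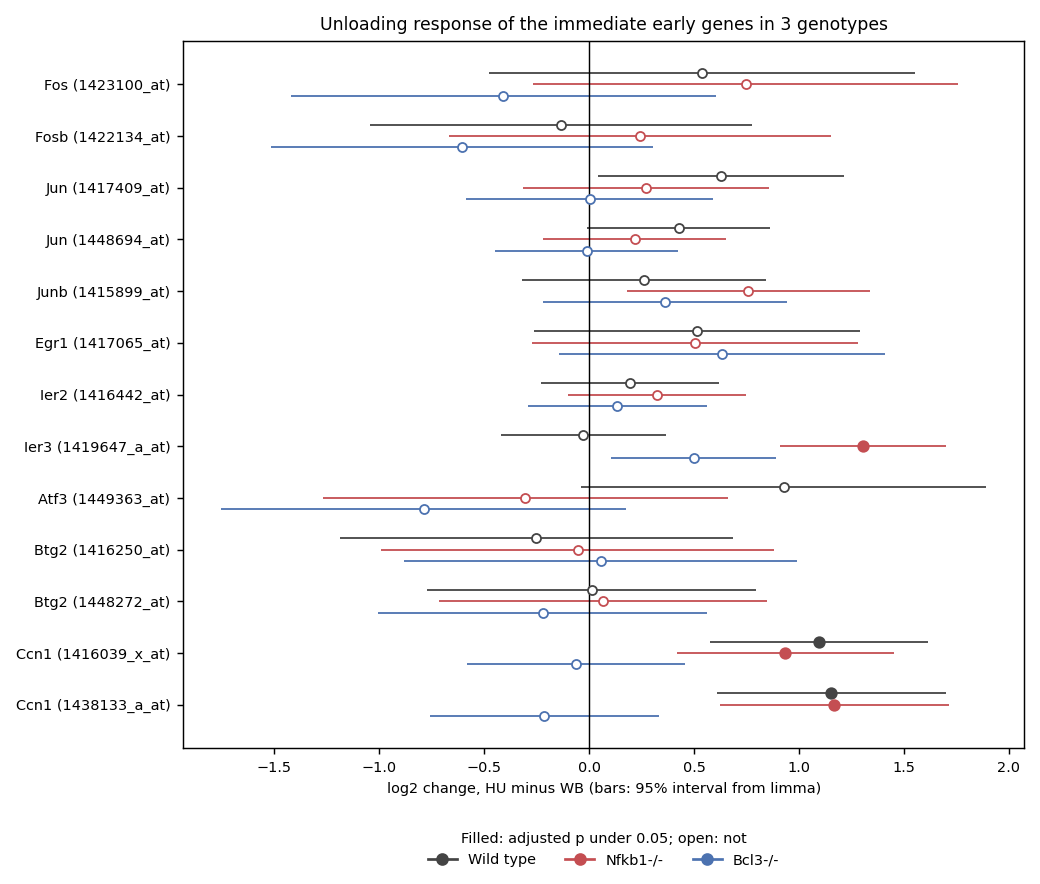
Unloading response of each of the 13 probe sets as a log2 change, HU minus WB (horizontal axis), in wild type, Nfkb1-/- and Bcl3-/- mice, with points at the estimate, bars for the 95% interval from limma and filled points for an adjusted p under 0.05. The 5 filled points are the 2 Ccn1 probe sets in wild type and in Nfkb1-/- mice and Ier3 in Nfkb1-/- mice, and the wide intervals include that of Fos in wild type mice, from -0.48 to 1.55.

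Ccn1, the secreted protein that signals through integrins and is a target of YAP and SRF, rose 2.14-fold and 2.22-fold with unloading in wild type and 1.91-fold and 2.25-fold in Nfkb1-/- muscle, by its 2 probe sets. With 1416039_x_at its intensity was 96.8, 62.4, 90.4 and 56.2 in WB wild type mice 1 to 4 and 166, 121, 171 and 187 in the HU wild type mice. Every HU mouse was above every WB mouse. The log2 change was 1.10 (SE 0.25, 95% interval 0.58 to 1.61, n = 4 mice a group, limma adjusted p = 0.013).

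The other probe set, 1438133_a_at, gave 37.2, 21.3, 33.2 and 22.7 in WB and 70.2, 56.2, 53.1 and 69.7 in HU wild type mice. These groups did not overlap either, and the log2 change was 1.15 (SE 0.26, limma adjusted p = 0.013). Probe sets of the _x_at kind may share probes with other transcripts, and the deviations of the 2 Ccn1 probe sets from their group means correlated with r = 0.92 over the 24 arrays.

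In Nfkb1-/- mice Ccn1 rose as well. With 1416039_x_at the WB mice had 134, 78.1, 87.7 and 70.1 and the HU mice 129, 165, 262 and 154. The highest WB mouse exceeded the lowest HU mouse, and the log2 change was 0.94 (SE 0.25, limma adjusted p = 0.016). With 1438133_a_at the values were 39.0, 27.6, 30.8 and 21.4 in WB and 50.5, 63.6, 84.6 and 66.2 in HU mice, which did not overlap, and the log2 change was 1.17 (SE 0.26, limma adjusted p = 0.0050). The wild type response minus the Nfkb1-/- response was 0.16 (95% interval -0.57 to 0.89, limma adjusted p = 0.91) and -0.01 (-0.78 to 0.76, limma adjusted p = 0.99) for the 2 probe sets.

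In Bcl3-/- mice Ccn1 did not pass the test. On their own scale the WB mice had 701, 1266, 916 and 567 and the HU mice 799, 927, 935 and 557 with 1416039_x_at, and the groups overlapped. The log2 changes were -0.06 (SE 0.25, 95% interval -0.58 to 0.45, limma adjusted p = 0.90) and -0.21 (SE 0.26, 95% interval -0.76 to 0.33, limma adjusted p = 0.66). The rise in wild type exceeded the change in Bcl3-/- mice by 1.16 (95% interval 0.43 to 1.89, limma adjusted p = 0.12) and 1.37 (0.60 to 2.14, limma adjusted p = 0.078) on the log2 scale, and neither difference passed the test. Without Bcl3-/- WB mouse 4 the second was 1.62 (limma adjusted p = 0.026). This was the 1 call in 16 fits without a mouse for that probe set, with limma adjusted p up to 0.15. The first was called in 0 of 16 such fits. Over all probe sets, 1.07% differed between these responses, and of the 13 members 0 passed and 3 had an unadjusted p under 0.05.

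The Ccn1 calls were close to the threshold for single arrays. In wild type, 1438133_a_at lost its call without WB mouse 2 (log2 change 1.02, limma adjusted p = 0.054) and 1416039_x_at without WB mouse 4 (0.96, limma adjusted p = 0.051). The probe set 1416039_x_at lost its call without WB mouse 2, WB mouse 4 or HU mouse 3 in Nfkb1-/- mice (0.73 to 0.87, limma adjusted p = 0.053 to 0.077), while 1438133_a_at kept it in 8 of 8 such fits.

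**Figure D2:**
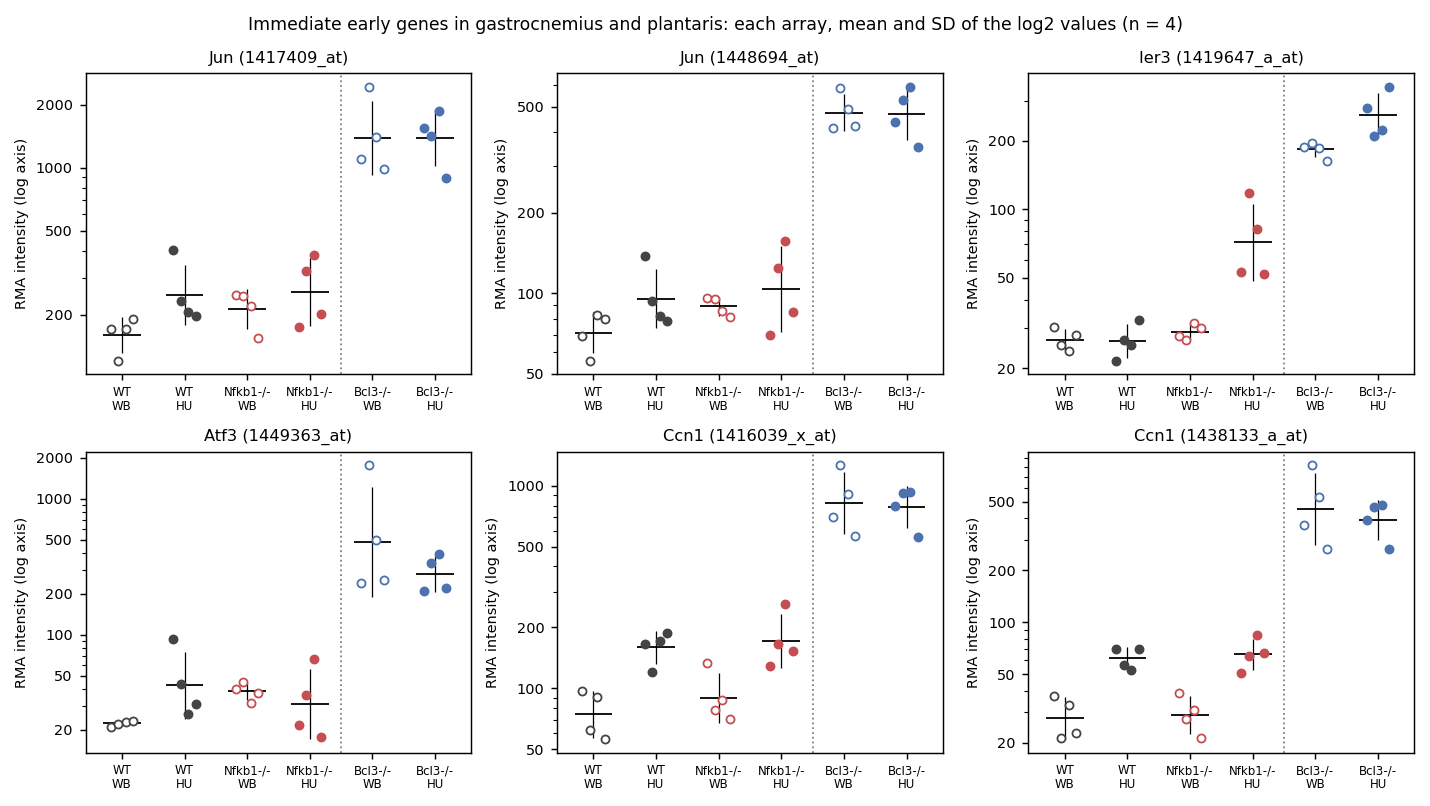
Intensity of Jun (2 probe sets), Ier3, Atf3 and Ccn1 (2 probe sets) on each array (vertical log axis), by genotype and loading, with open points for WB, filled points for HU, horizontal lines for the mean and vertical lines for the SD of the log2 values (n = 4). The dotted line separates the Bcl3-/- arrays, which are on another scale. Ier3 stands higher in the HU Nfkb1-/- group (51.9 to 117) than in the other 3 groups left of the line, and Ccn1 is higher in HU than in WB mice left of the line, with 1 overlap.

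Ier3, which NF-κB, p53 and growth factors induce in many cells, rose with unloading in the mice without p50. The 4 WB Nfkb1-/- mice had 27.8, 26.6, 31.7 and 30.1 and the 4 HU mice 52.8, 117, 81.4 and 51.9. The lowest HU mouse was above the highest WB mouse (51.9 against 31.7), and the log2 change was 1.30 (SE 0.19, 95% interval 0.91 to 1.699, limma adjusted p = 0.00018), a 2.47-fold rise. In wild type the WB mice had 30.4, 25.4, 23.7 and 27.9 and the HU mice 21.6, 26.5, 25.3 and 32.7, which overlapped, with a log2 change of -0.03 (SE 0.19, 95% interval -0.42 to 0.37, limma adjusted p = 0.97).

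In Bcl3-/- mice Ier3 was 188, 196, 186 and 164 in the WB and 277, 211, 222 and 345 in the HU group. Here too every HU mouse was above every WB mouse, and the log2 change of 0.50 (SE 0.19, 95% interval 0.10 to 0.89) had a limma adjusted p of 0.097. Of all probe sets, 15.4% had groups that did not overlap in this genotype.

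The wild type response of Ier3 minus the Nfkb1-/- response was -1.33 (SE 0.27, 95% interval -1.89 to -0.77, limma adjusted p = 0.037), so that the rise in Nfkb1-/- mice was the larger. It was the 1 member to pass this test, in which 0.057% of all probe sets were lower in the wild type response and 0.176% differed in either direction. Leaving out single mice gave -1.49 to -1.09 with limma adjusted p of 0.015 to 0.093, and the call held without wild type WB mouse 3, wild type HU mouse 4, Nfkb1-/- WB mouse 3 or Nfkb1-/- HU mice 1 or 4, and was lost without any of the other 11 mice. Against Bcl3-/- mice, the difference between the responses was -0.52 (SE 0.27, 95% interval -1.08 to 0.03, limma adjusted p = 0.41). The rise within Nfkb1-/- mice was called in 8 of 8 fits without a mouse, with limma adjusted p of 0.00011 to 0.0012. It was lost with the methods' t-test, at an adjusted p of 0.12 after Benjamini-Hochberg adjustment and a q-value of 0.055.

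Some cell type markers also changed with unloading. Above 20 on at least 4 of the 16 wild type and Nfkb1-/- arrays were 8 of 10 macrophage and 2 of 5 neutrophil markers. So were 2 of 3 Schwann cell and 1 of 2 red cell markers. The rest of these lists needed the Bcl3-/- arrays to pass the filter. Over all genes, 3.93%, 12.2% and 10.5% were called in either direction in wild type, Nfkb1-/- and Bcl3-/- mice. Mbp, 1 of 3 Schwann cell markers tested, rose in Nfkb1-/- (log2 change 0.84, limma adjusted p = 0.049) and Bcl3-/- mice (0.96, limma adjusted p = 0.027). In wild type Mbp had 0.52 (limma adjusted p = 0.33). S100a8 and S100a9, calcium-binding proteins abundant in neutrophils, rose in HU Nfkb1-/- mice (log2 change 1.87 and 2.20, limma adjusted p = 0.018 and 0.00033) and in HU Bcl3-/- mice (2.71 and 3.07, limma adjusted p = 0.0018 and 1.4e-05). These were 2 of the 5 neutrophil markers tested in each knockout. In wild type 0 of 5 passed the test, and S100a8 had 1.47 (limma adjusted p = 0.10). The wild type response of S100a9 minus the Nfkb1-/- response was -1.24 (limma adjusted p = 0.30), and minus the Bcl3-/- response -2.11 (limma adjusted p = 0.035). S100a9 was at 3.31 to 3.52 in WB and 5.17 to 9.13 in HU wild type mice, and passed the filter only through the knockout arrays. Both differences thus rest on wild type values near the lower end of the scale, and the second also spans the 2 scales. The summed intensity of the 5 neutrophil markers was 55.3 to 133 in HU and 27.9 to 40.3 in WB Nfkb1-/- mice. The 2 HU Nfkb1-/- mice with the most Ier3, mice 2 and 3, had the lower sums of 60.9 and 55.3, and mice 1 and 4 had 133 and 105. For the 10 endothelial markers, mice 2 and 3 had the higher sums of 625 and 582, and mice 1 and 4 had 461 and 443. Of these 10 markers, Emcn fell in Nfkb1-/- mice (-0.74, limma adjusted p = 0.00082). Egfl7 (0.60, limma adjusted p = 0.0099) and Cldn5 (1.27, limma adjusted p = 0.015) rose in Bcl3-/- mice, and 0 passed the test in wild type. The summed intensity of the 2 red cell markers tested, Alas2 and Slc4a1, was 339 in HU Nfkb1-/- mouse 2, which had the most Ier3, against 48.4 to 68.3 in the other 3, and neither gene passed the test in this genotype (limma adjusted p = 0.31 and 0.29). Without this mouse, the log2 change of Ier3 was 1.07 (limma adjusted p = 0.00066). In wild type, HU mouse 1 had a neutrophil sum of 107 and a macrophage sum of 898, against 29.1 to 34.9 and 524 to 643 in the other 3 HU mice, and its Ier3 was the lowest of its group. In wild type and Nfkb1-/- mice the galectin Lgals3 was the macrophage marker that passed the test (2.02 and 1.704, limma adjusted p = 0.0017 and 0.0022), 1 of 10 in each genotype. The estimates of all 10 were above 0 in wild type (median 0.41, 6 at an unadjusted p under 0.05). In Nfkb1-/- mice 5 of 10 were above 0 (median -0.01, 2 at an unadjusted p under 0.05). The wild type minus Nfkb1-/- responses of the 10 had a median of 0.37, and 0 passed the test. The summed intensity of the 10 fibroblast markers was 6875 to 8225 in WB and 4670 to 5850 in HU wild type mice, where 1 of 10 fell (Col1a2, -0.79, limma adjusted p = 0.037) and Ccn1 rose. Of the same 10 markers, 5 fell and 1 rose in Nfkb1-/- mice (sums of 6786 to 8162 in WB and 3014 to 6272 in HU), where Ccn1 also rose, and 5 fell in Bcl3-/- mice (31208 to 42748 in WB and 19827 to 28931 in HU), where Ccn1 did not pass the test. The part of these cells in the changes of Ier3 and Ccn1 was not tested.

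Jun, the central AP-1 subunit, was measured by 2 probe sets and passed the test with neither. With 1417409_at the wild type mice had 170, 121, 170 and 190 in the WB and 405, 231, 206 and 198 in the HU group. All 4 HU mice were above all 4 WB mice, and HU mouse 1 stood far above the rest. The log2 change was 0.63 (SE 0.28, 95% interval 0.04 to 1.22, limma adjusted p = 0.24). Groups that did not overlap were seen for 4 of the 13 probe sets in wild type, and for 10.7% of all probe sets.

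The second Jun probe set, 1448694_at, had 69.2, 55.9, 82.6 and 79.7 in WB and 138, 93.1, 82.3 and 78.5 in HU wild type mice, which overlapped, with a log2 change of 0.43 (SE 0.21, limma adjusted p = 0.29). In Nfkb1-/- mice the log2 changes of Jun were 0.27 (SE 0.28) and 0.22 (SE 0.21), and in Bcl3-/- mice 0.00 (SE 0.28) and -0.01 (SE 0.21).

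Fos, the partner of Jun in the classical AP-1 dimer, had the widest spread of the 13 probe sets. Its intensity in WB wild type mice was 276, 139, 204 and 207 and in HU wild type mice 638, 322, 183 and 191. HU mice 1 and 2 were above all WB mice, while HU mice 3 and 4 were below 3 of the 4 WB mice. The log2 change was 0.54 (SE 0.49, 95% interval -0.48 to 1.55, limma adjusted p = 0.63).

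Among Nfkb1-/- mice Fos was 664, 351, 300 and 146 in the WB and 349, 790, 1318 and 223 in the HU group, a 5.92-fold range among the 4 HU mice. The groups overlapped, and the log2 change was 0.75 (SE 0.49, 95% interval -0.27 to 1.76, limma adjusted p = 0.39). In Bcl3-/- mice it was 1797, 3737, 3411 and 1232 in WB and 2295, 1568, 2165 and 1168 in HU mice, with a log2 change of -0.41 (SE 0.49, limma adjusted p = 0.65).

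Junb, an AP-1 subunit that in muscle is known for supporting fibre size, was at 7.26 to 9.06 in WB and 6.36 to 15.5 in HU wild type mice. The Nfkb1-/- mice had 13.5, 7.72, 9.78 and 7.22 in WB and 11.9, 18.3, 22.1 and 12.6 in HU mice. Only WB mouse 1 lay within the range of the HU mice, and the log2 change was 0.76 (SE 0.28, 95% interval 0.18 to 1.34, limma adjusted p = 0.084). Junb passed the filter through the Bcl3-/- arrays, and only 1 of the 16 wild type and Nfkb1-/- arrays was above 20 in intensity. The Bcl3-/- change was 0.36 (SE 0.28, limma adjusted p = 0.44).

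Fosb, a second Fos family protein, was at 3.68 to 11.6 in the wild type mice and 4.21 to 17.3 in the Nfkb1-/- mice, below the minimum of 20 on every one of these arrays. Its changes there were -0.14 and 0.24 (SE 0.44 each). On the Bcl3-/- arrays it was 82.7, 78.5, 86.3 and 40.0 in WB and 34.3, 39.1, 37.2 and 83.3 in HU mice, so that mouse 4 of each group stood among the values of the other group, and the log2 change was -0.61 (SE 0.44, limma adjusted p = 0.41).

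Atf3, a stress-induced family member that binds ATF and AP-1 sites, separated the loading groups in wild type. The WB wild type mice had 21.1, 22.1, 22.8 and 23.4 and the HU mice 93.2, 43.2, 26.0 and 31.2. Every HU mouse was above every WB mouse, and HU mouse 1 was the highest of the 16 wild type and Nfkb1-/- mice. The log2 change was 0.93 (SE 0.47, 95% interval -0.04 to 1.89, limma adjusted p = 0.30). The fit takes the spread of Atf3 over all 6 groups.

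Without p50, in Nfkb1-/- mice, Atf3 was 40.2, 45.1, 31.8 and 37.4 in the WB and 21.8, 36.2, 66.7 and 17.7 in the HU group, with a log2 change of -0.30 (SE 0.47, limma adjusted p = 0.78). In Bcl3-/- mice WB mouse 2 had 1767 and the other 3 had 241 to 500, against 209 to 391 in the HU mice, with a log2 change of -0.79 (SE 0.47, limma adjusted p = 0.30). For Atf3 the wild type response exceeded the Nfkb1-/- response by 1.23 (95% interval -0.13 to 2.59, limma adjusted p = 0.46) and the Bcl3-/- response by 1.72 (0.35 to 3.08, limma adjusted p = 0.24). Neither difference passed the test.

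Egr1, whose zinc finger protein is induced by mechanical load and growth factors, overlapped between WB and HU mice in all 3 genotypes. Its intensity in wild type was 146, 105, 307 and 99.9 in WB and 271, 234, 166 and 185 in HU mice. WB mouse 3 stood above all HU mice and the other 3 WB mice stood below them. The log2 changes in the 3 genotypes, wild type first and Bcl3-/- last, were 0.51, 0.51 and 0.63 (SE 0.38 each, limma adjusted p = 0.53, 0.46 and 0.30).

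Ier2, a small nuclear protein of the early serum response, was at 24.5 to 36.7 in WB and 30.0 to 37.6 in HU wild type mice, with log2 changes of 0.20, 0.32 and 0.13 in the 3 genotypes (SE 0.21 each). Btg2 had log2 changes between -0.25 and 0.07 over both probe sets and all 3 genotypes, with SE of 0.45 and 0.38. With 1416250_at it was 80.8 to 199 in WB and 49.8 to 213 in HU wild type mice, so that the HU range contained the WB range.

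Between weight bearing mice, Nfkb1-/- muscle was compared with wild type muscle. The wild type and Nfkb1-/- mice are different stocks. The strain and the loss of p50 therefore cannot be told apart, here or in the difference between their responses. None of the 13 probe sets passed the test (0 of 13 at limma adjusted p under 0.05, 0 at an unadjusted p under 0.05), against 0.902% and 7.85% of all probe sets. Every estimate was above 0, from 0.06 to 0.78 with a median of 0.35 on the log2 scale, against a median of -0.01 for all probe sets. These include Fosb (0.18) and Junb (0.16), which passed the filter through the Bcl3-/- arrays alone. Their values in the 2 groups compared lie near the lower end of the scale. The members move together from mouse to mouse, as described below, so that the 13 estimates are not independent. Atf3 (0.78, SE 0.47, 95% interval -0.19 to 1.74), Btg2 (0.75, SE 0.45 and 0.66, SE 0.38) and Fos (0.67, SE 0.49) had the highest values, and Ccn1 (0.27 and 0.06) and Ier3 (0.12) were among the lowest.

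Atf3 was the 1 member whose basal groups did not overlap (21.1 to 23.4 in wild type, 31.8 to 45.1 in Nfkb1-/-), against 6.64% of all probe sets. Its limma adjusted p was 0.80 in the fit of all 6 groups and 0.0037 in a fit of the WB wild type and WB Nfkb1-/- groups alone. Because the same 4 WB wild type mice enter this comparison and the wild type response, and the same 4 WB Nfkb1-/- mice enter the Nfkb1-/- response, the estimates are not independent of each other. For Atf3 the 4 group means on the log2 scale were 4.48 (WB wild type), 5.41 (HU wild type), 5.26 (WB Nfkb1-/-) and 4.96 (HU Nfkb1-/-).

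**Figure D3:**
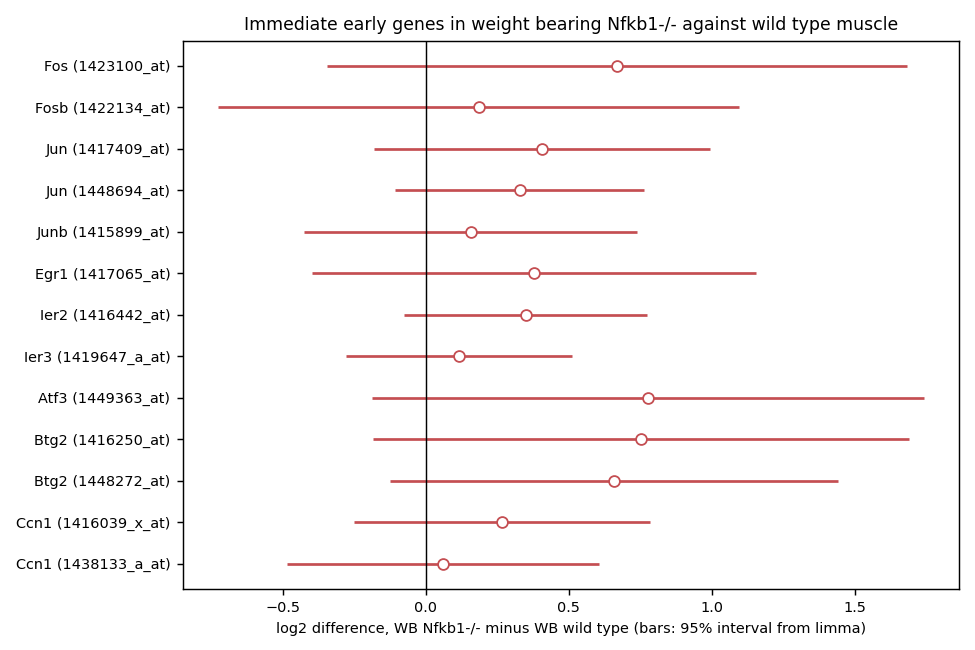
Difference between weight bearing Nfkb1-/- and weight bearing wild type mice for each of the 13 probe sets, as log2 values (horizontal axis) with points at the estimate and bars for the 95% interval from limma (4 mice a group). All 13 points lie right of 0, from 0.06 to 0.78, and all 13 bars cross 0. Fosb and Junb are among them, with values near the lower end of the scale in these groups.

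The immediate early genes differed more between mice of 1 group than most probe sets. Their residual SD within groups was 0.298 (Ier3) to 0.795 (Fos) on the log2 scale, against a median of 0.164 over 19294 probe sets. The SD of 12 of the 13 lay above the 95th percentile (0.307) and that of all 13 above the 90th (0.259). These counts include Fosb and Junb, whose values outside the Bcl3-/- arrays lie near the lower end of the scale. The half-width of the 95% interval of a response was up to 1.01 on the log2 scale (Fos), so that with 4 mice a group it spanned a doubling to either side of the estimate.

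**Figure D4:**
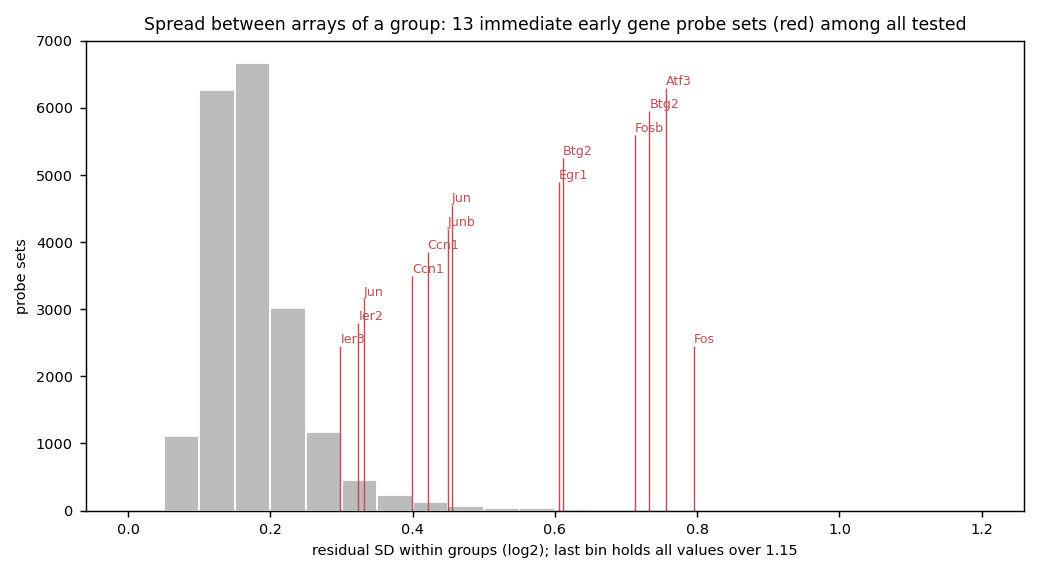
Histogram of the residual SD within groups, in log2 units (horizontal axis), over the 19294 probe sets tested (grey bars, number of probe sets on the vertical axis), with red lines at the 13 immediate early gene probe sets, whose heights are for legibility. The lines run from 0.298 (Ier3) to 0.795 (Fos), to the right of the median of 0.164.

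The spread was shared among the genes. For each gene the deviation of every array from its group mean was taken on the log2 scale, and over the 24 arrays 44 of the 45 pairs of genes had a positive correlation, with a median r of 0.47 and 19 pairs above 0.5. These are descriptions of arrays that share their RNA, its handling and its normalization. Pairs with Fosb or Junb, which are near the lower end of the scale outside the Bcl3-/- arrays, are counted. Fos went with Jun (r = 0.86), Btg2 (0.86) and Junb (0.80), and Jun with Atf3 (0.83). Egr1 went with Ier2 (0.85) and Fosb (0.80). Ier3 was least tied to the rest, with r of 0.24 against the mean of the other members, where Fos had 0.92, and with r of -0.01 with Junb.

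The mice that stood out did so in each loading condition. Averaged over the 8 genes other than Fosb and Junb, Nfkb1-/- HU mouse 3 (0.70), Bcl3-/- WB mouse 2 (0.59), wild type HU mouse 1 (0.52) and Nfkb1-/- WB mouse 1 (0.48) had the highest mean deviations from their group, in log2 units. Nfkb1-/- HU mouse 4 (-0.68) and Bcl3-/- WB mouse 4 (-0.55) had the lowest. In wild type WB mouse 3 and Nfkb1-/- WB mouse 4, Egr1 and Fosb were above their group means while Btg2 was below its own. Wild type HU mouse 1 and Nfkb1-/- HU mouse 3 differed in their macrophage sums (898 and 570), and the part of macrophages in this spread was not tested.

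**Figure D5:**
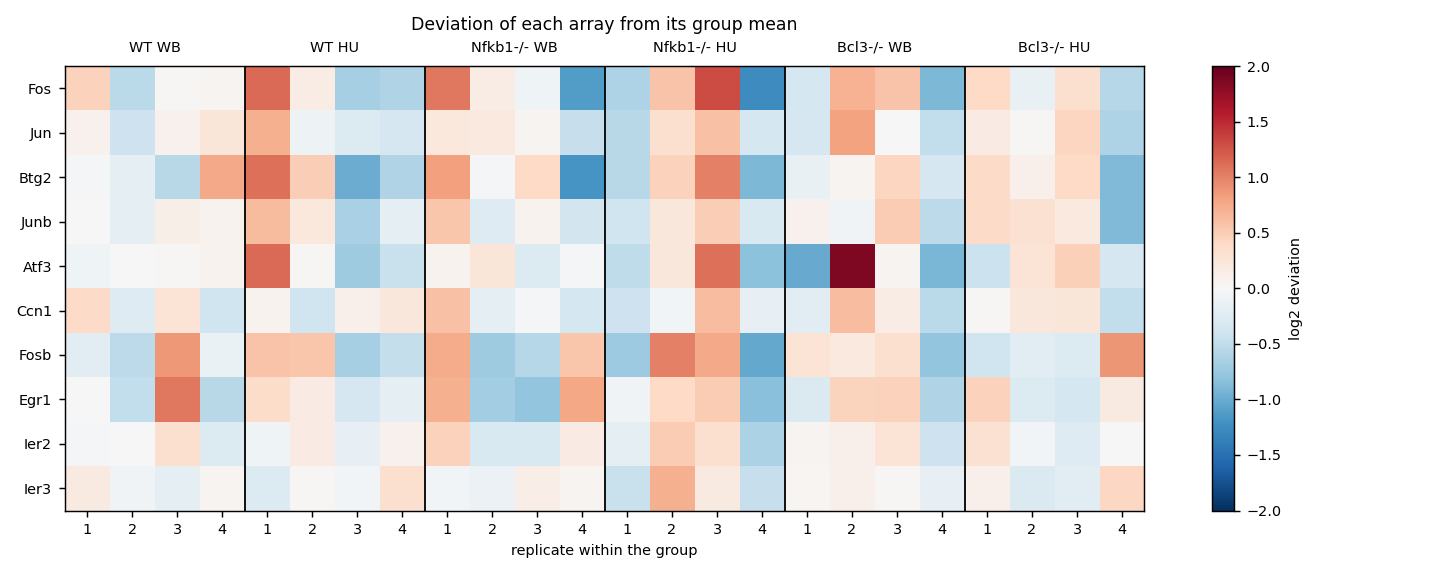
Deviation of each of the 24 arrays (columns, by group and replicate) from its group mean for the 10 genes (rows), as log2 values on a colour scale from -2 (blue) to 2 (red), with 1 probe set a gene. Wild type HU mouse 1, Nfkb1-/- HU mouse 3 and Bcl3-/- WB mouse 2 are red in most rows and Nfkb1-/- HU mouse 4 is blue in most rows, while Egr1, Fosb and Ier2 share a pattern that differs in some mice from that of Fos, Jun and Btg2.

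Of 5960 genes above 20 on enough wild type and Nfkb1-/- arrays, those with deviations most like the mean of the members were Rpl22l1 (Pearson's r = 0.86, Spearman's rho = 0.78), Adamts1 (0.85 and 0.83), Pfdn1 (0.84 and 0.75), Eef1b2 (0.82 and 0.78) and Klf6 (0.82 and 0.79), over 24 arrays, and 383 genes had r over 0.5. Adamts1 encodes a secreted metalloproteinase and Klf6 a zinc finger factor that is itself an immediate early gene, while Rpl22l1 and Eef1b2 belong to translation and Pfdn1 to the prefoldin chaperone. Of these 5 genes, Eef1b2 rose with unloading in wild type (log2 change 0.34, limma adjusted p = 0.034) and Bcl3-/- mice (0.32, limma adjusted p = 0.029), and the other 4 passed the test in no genotype.

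Among 43 other immediate early genes tested, 3 rose in wild type mice, 4 rose in Nfkb1-/- mice, and 2 rose and 2 fell in Bcl3-/- mice, against 3.93%, 12.2% and 10.5% of all genes called in either direction. The median log2 changes were -0.01, 0.01 and 0.03, against -0.01, -0.00 and 0.01 for all genes. Of the 43, 28 were above 20 on at least 4 of the 16 wild type and Nfkb1-/- arrays. The others needed the Bcl3-/- arrays to pass the filter, and the counts and medians include them. Klf10, a TGF-β-inducible repressor, rose in all 3 genotypes, by 1.30, 1.67 and 1.26 on the log2 scale (SE 0.25 each, limma adjusted p = 0.0038, 0.00018 and 0.0025). Its level was 21.96 ± 5.64 (SD, n = 4) in WB and 53.4 ± 10.3 in HU wild type mice. Pim1, a serine kinase (1.22, limma adjusted p = 0.038), and Btg1, a relative of Btg2 (0.60, limma adjusted p = 0.029), were the other 2 that rose in wild type.

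Beside Klf10, the cytokine signalling inhibitor Socs3 (1.56, limma adjusted p = 0.0030), the stress sensor Gadd45b (0.94, limma adjusted p = 0.0093) and the survival factor Mcl1 (0.35, limma adjusted p = 0.041) rose in Nfkb1-/- mice. In Bcl3-/- mice Gadd45b rose (1.01, limma adjusted p = 0.0079), the bZIP repressor Nfil3 fell by 1.40 (limma adjusted p = 0.015), and Ccn2, the closest relative of Ccn1, fell by 1.02 (limma adjusted p = 0.018). Ccn2 was at 165 ± 43.1 in WB and 176 ± 29.0 in HU wild type mice (SD, n = 4), where it did not pass the test. None of the 43 passed the test of the basal difference (0.856% of all genes did) or of the difference from the Nfkb1-/- response (0.207%) or the Bcl3-/- response (1.17%), and at an unadjusted p under 0.05 there were 6, 3 and 2 of them.

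Of 22 regulators upstream of these genes (SRF with its co-activators, ETS partners, CREB proteins and MAP kinases), 1 rose in wild type, 1 rose and 2 fell in Nfkb1-/-, and 3 rose and 2 fell in Bcl3-/- mice. Over all genes, 3.93%, 12.2% and 10.5% were called in either direction in these genotypes. Of the 22, 16 were above 20 on at least 4 of the 16 wild type and Nfkb1-/- arrays. The others needed the Bcl3-/- arrays to pass the filter. Elk4, an ETS partner of SRF, rose in each genotype (0.46, 0.54 and 0.66, SE 0.11, limma adjusted p = 0.020, 0.0027 and 0.0010). The p38 activator Map2k6 fell by 1.34 in Nfkb1-/- (limma adjusted p = 0.00042) and by 0.92 in Bcl3-/- mice (limma adjusted p = 0.0092), and Mrtfa, the actin-regulated co-activator of SRF, fell by 1.06 in Nfkb1-/- mice (limma adjusted p = 0.0020). In wild type mice mean Map2k6 was 67.0 in WB and 46.3 in HU, without passing the test. Mean Mrtfa was 57.8 and 49.9 there, and its wild type minus Nfkb1-/- response was 0.85 (limma adjusted p = 0.24). For Mapk14, the p38α kinase, the wild type response minus the Bcl3-/- response was -0.54 (limma adjusted p = 0.037), where 1.17% of all genes differed.

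Of 18 genes of the integrated stress response, to which Atf3 also belongs, 1 rose in wild type, 2 rose and 1 fell in Nfkb1-/-, and 1 rose in Bcl3-/- mice. The shares of all genes called in either direction were 3.93%, 12.2% and 10.5%. Of the 18, 10 were above 20 on at least 4 of the 16 wild type and Nfkb1-/- arrays. The others needed the Bcl3-/- arrays to pass the filter. Ppp1r15a, the stress-induced subunit that dephosphorylates eIF2α, rose in wild type (1.20, limma adjusted p = 0.016) and Nfkb1-/- mice (1.38, limma adjusted p = 0.0025). Chac1, a glutathione-degrading enzyme downstream of ATF4, rose in Nfkb1-/- (2.74, limma adjusted p = 0.00012) and Bcl3-/- mice (1.84, limma adjusted p = 0.0037). In wild type mice mean Chac1 was 113 in WB and 181 in HU. Its wild type minus Nfkb1-/- response was -2.05 (limma adjusted p = 0.10), which did not pass the test. The kinase Eif2ak2 fell by 0.33 in Nfkb1-/- mice (limma adjusted p = 0.026). Its intensity there was 11.3 to 14.0 in WB and 9.55 to 11.4 in HU mice. Eif2ak2 passed the filter through the Bcl3-/- arrays alone, so this fall rests on values near the lower end of the scale.

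Of 13 targets of YAP and TEAD, a group that also counts Ccn1, the stretch-responsive titin partner Ankrd1 rose in wild type (3.15, SE 0.48, limma adjusted p = 0.00059) and Nfkb1-/- mice (1.79, limma adjusted p = 0.016). Its level was 12.6 ± 2.49 in WB and 135 ± 111 in HU wild type mice (SD, n = 4). Its wild type response exceeded the Bcl3-/- response by 2.74 (limma adjusted p = 0.047), and Fstl1, a secreted glycoprotein, fell by 0.77 in Nfkb1-/- (limma adjusted p = 0.036) and by 1.00 in Bcl3-/- mice (limma adjusted p = 0.0092). Ankrd1 was the 1 gene of this list that rose, and none rose in Bcl3-/- mice. Of the 13, 8 were above 20 on at least 4 of the 16 wild type and Nfkb1-/- arrays. The others needed the Bcl3-/- arrays to pass the filter. Among all genes, 3.93%, 12.2% and 10.5% were called in either direction in wild type, Nfkb1-/- and Bcl3-/- mice. Between the wild type and Bcl3-/- responses, 1.17% of all genes differed.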

How the data were processed

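Gastrocnemius and plantaris RNA of 24 mice was measured on 24 arrays (Affymetrix 430A 2.0), 4 in each of 6 groups taken from the sample labels. The authors summarised the scanner files of GCOS with RMA and quantile normalization in GenePattern and deposited 1 table of linear intensities, whose depth is the number of arrays. Of 22690 probe sets, 64 are controls. Of the rest, 20380 are annotated to 1 gene, 691 to several and 1555 to none listed here.

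Probe sets above 20 on 4 or more arrays were kept (19294, for 11098 genes), and their log2 values were fitted with limma 3.58.1 in R 4.3.3, with 1 mean a group (18 residual and 5.89 prior degrees of freedom). Calls had a Benjamini-Hochberg adjusted p under 0.05 over all probe sets tested, also for single genes. In lists, a gene was represented by its probe set with the highest mean. The alternatives were other filters, scales, variance models, normalization, array weights, the groups compared alone, the methods' t-test, the replicate number as a block, and leaving out each array. The fit was tested on simulated data.

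The members and the gene lists were chosen with earlier results of these data known. Genes named beside the members were drawn, for each list and comparison, from up to 4 called genes (2 for cell types) with the largest change. Where none was called, the gene with the smallest p was taken. Not every gene picked by this rule is given in the text. The 5 genes whose deviations were most like those of the members were also named. Promoter letters were searched on both strands in RefSeq sequence. Same-numbered WB and HU arrays had deviations correlated with r from -0.17 to 0.22, so the numbers do not pair mice. The limma p-values of the main fit set a difference against the spread between mice within groups, pooled over all 6 groups.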

Additional observations from a re-analysis of the deposited data

Results flagged for a closer look

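Of 78 groups of 4 arrays tested for a value far from the other 3, 4 were set apart, where chance sets apart about 5%. All 4 were mouse 4 of a Bcl3-/- group. Fosb was lowest in WB mouse 4 (40.0, against 78.5 to 86.3 in the other 3) and highest in HU mouse 4 (83.3, against 34.3 to 39.1). Junb was lowest in HU mouse 4 (95.01), and so was the Btg2 probe set 1448272_at (405).

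The difference between the responses of Ier3 in 2 genotypes passed the test in the fit of all groups. The wild type response minus the Nfkb1-/- response was -1.33 on the log2 scale (limma adjusted p = 0.037), with 4 of 4 HU Nfkb1-/- mice above all WB Nfkb1-/- mice and overlapping groups in wild type mice. This call was lost in 14 of 25 alternatives, namely 11 of the 16 fits without a mouse, log2 of the intensity plus 16 (limma adjusted p = 0.090), only the groups compared (0.073) and the replicate block (0.063).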

How the results depend on the processing

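Of 1596 recomputed values over 78 results (13 probe sets in 6 comparisons), 1565 kept their side of the threshold, 26 lost a call, 5 gained one and 0 reversed. The number of members called with unloading in wild type was 2, and 1 with log2 of the intensity plus 16 or with 1 probe set a gene, 0 with the methods' t-test and Benjamini-Hochberg adjustment, and 1 to 2 without single arrays. For Nfkb1-/- it was 3, and 1 with the methods' t-test under either adjustment, where Ier3 had 1.39 (adjusted p = 0.12 with Benjamini-Hochberg adjustment, 0.055 as a q-value). In Bcl3-/- mice it was 0, and 1 with log2 of the intensity plus 16 (Ier3, 0.46, limma adjusted p = 0.042). For the basal difference it was 0, and 1 (Atf3) with only the groups compared or with the methods' q-values (0.029). For the wild type minus Nfkb1-/- response it was 1 (Ier3), and 0 with log2 plus 16 (-0.99, limma adjusted p = 0.090), 0 with only the groups compared (limma adjusted p = 0.073), and 0 to 1 without single arrays. For the wild type minus Bcl3-/- response it was 0, and 0 to 1 without single arrays. With the replicate number as a block, the number called for the wild type minus Nfkb1-/- response was 0 (Ier3, -1.33, limma adjusted p = 0.063), and the counts of the other 5 comparisons stayed at 2, 3, 0, 0 and 0. The cause of these differences was not tested.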
